A study of Rattus norvegicus with 12 samples.

Results

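Hippocampal gene expression was compared between stressed rats given albiflorin and unstressed rats given saline, which asks what still differs from the unstressed hippocampus after stress plus this drug. The comparison covers every row of the deposited table with a mean of at least 0.5 FPKM (the reads of a gene divided by its length and by the total of its library) over all 12 libraries, which is 15253 of 28959 rows. The lowest mean inside this limit was 0.5008 FPKM and the highest outside it 0.4999. The CUMS-Alb group was put through 5 weeks of CUMS (chronic unpredictable mild stress) and was given albiflorin, 7 mg/kg/d, in the last 7 days. The Ctrl-Sal group had no stress and received saline. Both are Sprague Dawley rats with a stated age of 6-7 weeks, and each group has 3 libraries. CUMS-Sal (stress and saline) and CUMS-Flx (stress and fluoxetine, at 10 mg/kg/d by the sample labels and 7 by the series text), also 3 libraries each, are used beside them. No group was given albiflorin without stress, so an effect of the drug on unstressed tissue was not measured. Whether each library is a rat of its own is not stated in the labels, so the p-values measure only the spread between libraries, which may be technical.

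The hippocampus supports memory and takes part in ending the hormonal stress response through its glucocorticoid receptors, and it is a region where long stress is known to change neurons. Mild unpredictable stressors in rodents are a common model of depression-like behaviour. Albiflorin, a monoterpene glycoside found in peony roots, has been studied for antidepressant-like activity, and fluoxetine is a serotonin reuptake inhibitor. The deposited table lists rows by ID without names. The reference used here held no Ensembl IDs, so no row could be paired with a gene name. Genes are therefore described by level, length and behaviour across libraries, and a few single ones by ID. For the same reason the labelled tissue could not be checked against marker genes, and no pathway or cell type is described. In whole tissue, fewer cells of a type and less RNA per cell cannot be told apart.

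Library totals, recovered from the FPKM values, were 14735953 to 18109623 reads. Ctrl-Sal replicate 2 stood apart. On principal component 1 (36% of the variance) it had a score of -44.7, against -12.2 and -7.8 for Ctrl-Sal replicates 1 and 3 and 6.1 to 12.3 for CUMS-Alb. Across the genes tested, the median SD between the 3 libraries was 0.09 log2 units in CUMS-Alb and 0.15 in Ctrl-Sal. It was 0.11 in both CUMS-Sal and CUMS-Flx. Without replicate 2 it was 0.09 in Ctrl-Sal, an SD of 2 libraries that cannot be set directly against those of 3.

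Stressed rats given albiflorin had 332 genes higher and 49 genes lower than unstressed rats at an adjusted p under 0.05 in limma. These calls were 2.18% and 0.321% of the genes tested, or 2.5% together. Most called differences were modest. The higher genes had a median log2 change of 0.53 (quartiles 0.40 and 0.67, highest 1.89) and the lower genes one of -0.47 (quartiles -0.72 and -0.38, lowest -1.82), all of FPKM + 0.5. Of the higher genes 127 exceeded 1.5-fold and 15 exceeded 2-fold, and of the lower genes 17 and 6 did. The higher genes were of moderate level, with a median of 14.4 FPKM against 8.12 for all genes tested, and the lower genes had a median of 25.6 FPKM.

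The calls lay close to the threshold and depended on how the libraries were scaled. The smallest adjusted p was 0.0385 and all 381 lay between it and 0.05, while 4185 genes (27.4%) had an unadjusted p under 0.05, 3510 of them higher and 675 lower. The median change over all genes was 0.09, and 67.9% of genes were above 0. When every library was centred so that its median deviation from the gene means was 0, which removes this shift, 10 genes were called higher and 18 lower (0.0656% and 0.118%). Centring lowers every change by about the median, which itself moves the balance toward lower genes. The smallest called changes were 0.23 and -0.25, so a shift of this size could not turn the direction of any of the 381 genes. The medians of the higher and lower sets became 0.44 and -0.57, and 24.7% of all genes had an unadjusted p under 0.05. After quantile normalization 50 were higher and 48 lower, and without Ctrl-Sal replicate 2 the calls were 5 and 1. The 3 CUMS-Alb libraries lay entirely above the 3 Ctrl-Sal libraries in 3758 genes (24.6%) and entirely below them in 972 (6.37%), which is 31% of the genes together.

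**Figure D1:**
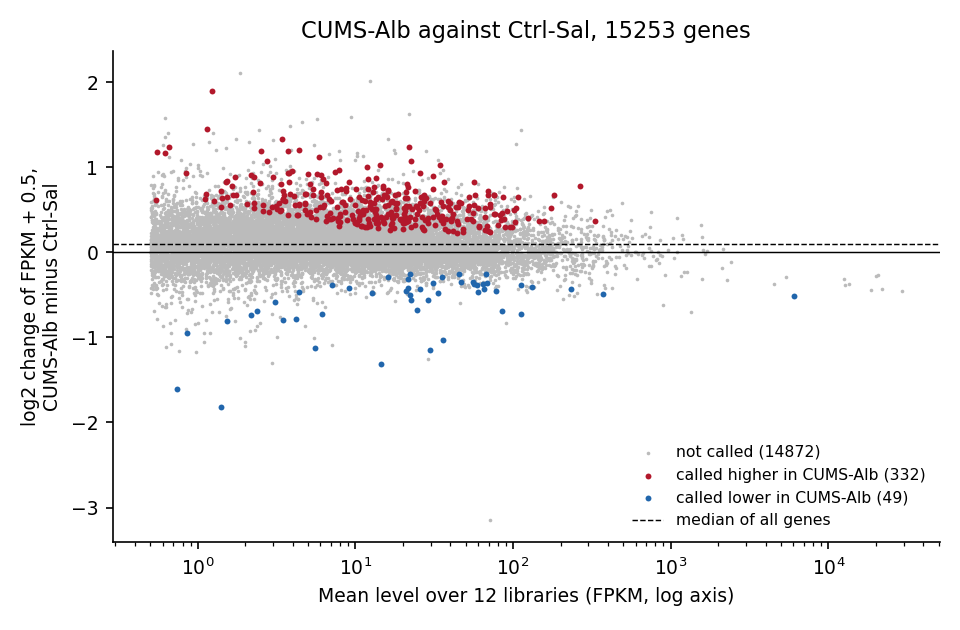
Each point is 1 of 15253 genes, with its mean FPKM over 12 libraries on a log axis and its log2 change of FPKM + 0.5 between CUMS-Alb and Ctrl-Sal. The 332 genes called higher (red) and the 49 called lower (blue) spread over most of the range of levels, and the dashed median of all genes lies above 0, at 0.09.

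For most genes the data bounded the difference from unstressed tissue on the scale of FPKM + 0.5, with the libraries scaled as deposited. The 95% interval of the log2 change had a median half-width of 0.25, and in 11102 genes (72.8%) it lay entirely within 1.5-fold in either direction. It lay within 2-fold in 14443 genes (94.7%). The added 0.5 compresses the folds of genes of low level, so their fold in FPKM itself can lie outside these limits. Centring the libraries shifts the changes, and with them the intervals, by about the median change. The counts hold for the deposited scaling only. The bound was tighter for abundant genes, with a median half-width of 0.18 over 15.4 FPKM against 0.36 up to 3.72 FPKM. A further 485 genes had an estimated change of over 1.5-fold and were not called, so a lack of a call does not show that a gene was back at the unstressed level.

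Single rows were taken by a rule, the 2 of smallest p in each direction among called genes whose libraries did not overlap. Of these, ENSRNOG00000057823 was higher with albiflorin. Its recovered length is 2545 bp. It stood at 14.9, 16.0 and 15.9 FPKM in the Ctrl-Sal libraries and at 23.2, 21.4 and 22.9 in CUMS-Alb, on 557 to 1004 reads. The log2 change was 0.52 (SE 0.07, 95% interval 0.37 to 0.66, limma adjusted p = 0.0385). CUMS-Sal lay between them, at 19.6, 18.3 and 18.7 FPKM, and CUMS-Flx at 24.5, 26.0 and 22.7. Every library of either drug group was thus above every library of stressed rats given saline. The row was chosen for its difference between CUMS-Alb and Ctrl-Sal, which favours high CUMS-Alb values. The share of all genes with such a separation from CUMS-Sal was not counted, so this order carries no test. The direct difference of CUMS-Alb from CUMS-Sal was 0.24 (95% interval 0.10 to 0.39) and did not pass the test (limma adjusted p = 1.0).

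ENSRNOG00000037886, with a recovered length of 846 bp, showed one of the larger increases. It stood at 1.2, 0.906 and 1.91 FPKM in Ctrl-Sal and at 3.68, 4.77 and 3.71 in CUMS-Alb, where the reads were 15, 12 and 26 against 48, 69 and 54. The log2 change was 1.34 (SE 0.17, 95% interval 0.96 to 1.72, limma adjusted p = 0.0385), which is 2.52-fold on the scale of FPKM + 0.5. The 6 other stressed libraries were also above all 3 unstressed ones, at 4.45, 5.07 and 4.53 FPKM in CUMS-Sal and 3.23, 3.6 and 4.18 in CUMS-Flx.

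Among the lower rows, ENSRNOG00000055068 (768 bp) fell the more. Its FPKM were 24, 36.4 and 22.1 in Ctrl-Sal and 9.88, 9.82 and 12 in CUMS-Alb, a log2 change of -1.31 (SE 0.19, limma adjusted p = 0.0385). Ctrl-Sal replicate 2 was the highest library, and without it the change was -1.10 (adjusted p = 0.0575). CUMS-Sal, at 9.73, 9.31 and 11.1, and CUMS-Flx, at 12.3, 10.9 and 7.41, lay in the same low range as CUMS-Alb. The difference of CUMS-Alb from CUMS-Sal was 0.07, with a 95% interval of -0.35 to 0.49.

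Novel01763, a row of 3376 bp without an Ensembl ID, was lower by a smaller amount. It stood at 8.44, 8.59 and 7.99 FPKM in Ctrl-Sal and at 4.15, 5.23 and 5.18 in CUMS-Alb, on 420, 454 and 435 against 216, 302 and 301 reads (log2 change -0.73, SE 0.11, limma adjusted p = 0.0385). All 9 stressed libraries were below the unstressed ones, with CUMS-Sal at 6.26, 5.51 and 5.31 FPKM and CUMS-Flx at 5.46, 6.34 and 4.92. These 4 rows kept their calls with library deviations set to 0 (adjusted p = 0.0455 for ENSRNOG00000057823 and 0.0341 for the other rows) and after quantile normalization (0.0429 and 0.0298). Without Ctrl-Sal replicate 2 both higher rows kept their calls (0.0262) and Novel01763 lost it (0.06), as ENSRNOG00000055068 did. None kept its call without CUMS-Alb replicate 1, 2 or 3, where the adjusted p was 0.141, 0.124 and 0.088 to 0.09.

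ENSRNOG00000019050 (2068 bp), chosen after its values were seen, was nearly absent from the CUMS-Alb libraries. It had 42, 37 and 46 reads in Ctrl-Sal, or 1.38, 1.14 and 1.38 FPKM, and 1, 0 and 0 reads in CUMS-Alb. CUMS-Sal held 60, 42 and 37 reads and CUMS-Flx 109, 45 and 161, so all 9 libraries outside CUMS-Alb contained it. Per library total, the CUMS-Alb reads came to 0.00748 of the Ctrl-Sal reads (exact 95% interval 0.000188 to 0.0424, for counting error alone). The log2 change was -1.82 on the compressed scale of FPKM + 0.5 (SE 0.28, limma adjusted p = 0.0385). Against CUMS-Sal it was -1.91 and did not pass (limma adjusted p = 0.2). It passed there with a pseudocount of 0.1 (-3.79, adjusted p = 0.00188) and in a fit of these groups alone (adjusted p = 0.0224), and over all other settings the adjusted p was 0.0777 to 1. No other row of the table had at most 1 read over the CUMS-Alb libraries and at least 100 over the Ctrl-Sal libraries. By the same limits CUMS-Sal and CUMS-Flx each had 1 such row against Ctrl-Sal, another than this one. A nearly absent row was thus not particular to CUMS-Alb. Without Ctrl-Sal replicate 2 the call was lost (adjusted p = 0.06, log2 change -1.88), as it was without each CUMS-Alb library (adjusted p = 0.141, 0.124 and 0.0963).

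**Figure D2:**
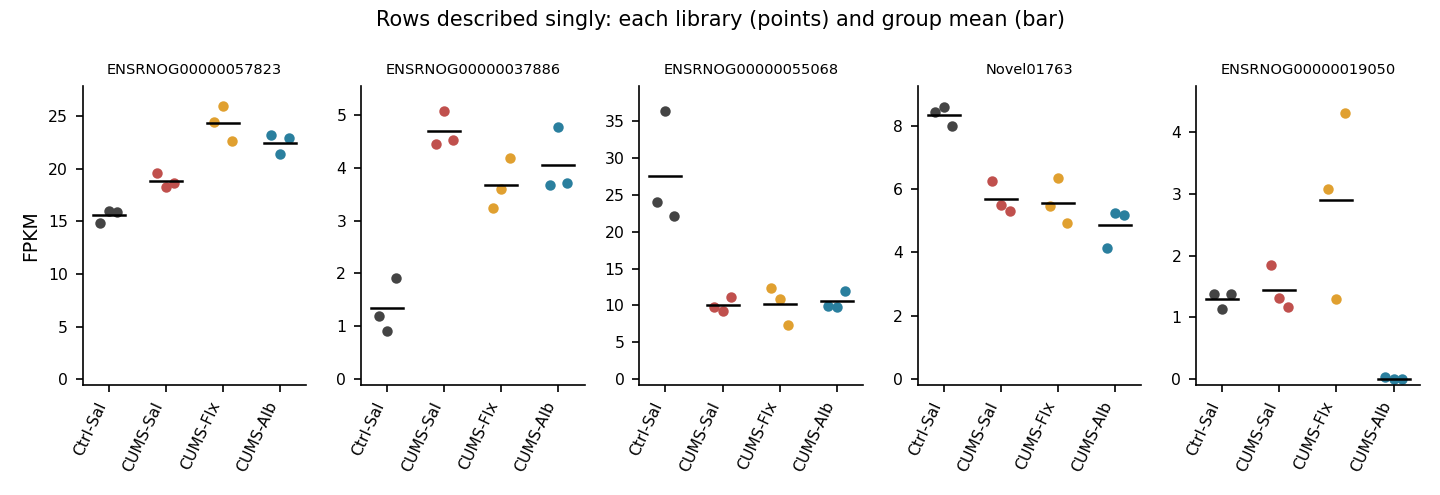
FPKM of the 5 rows described singly, with a point for each library, a bar for the mean of each group of 3 and a scale of its own in each panel. In the first 4 rows the CUMS-Alb points lie apart from Ctrl-Sal on the same side as the other stressed groups, and ENSRNOG00000019050 is near 0 in the 3 CUMS-Alb libraries.

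Higher and lower genes differed in length. Of the 5066 genes no longer than 1600 bp, 68 (1.34%) were higher and 39 (0.77%) lower. Among those of 1600 to 2800 bp it was 96 and 8 of 5088, and among longer genes 168 and 2 (3.29% and 0.0392% of 5099). The median length was 2840 bp for the higher and 972 bp for the lower genes, against 2127 bp for all genes tested. With deviations set to 0 the numbers were small, at 2 higher and 12 lower among short and 5 and 1 among long genes, so the excess among short genes changed from higher to lower. With a smooth trend of the deviations on gene length removed, limma called 0 genes, with 24.6% of genes at an unadjusted p under 0.05 and a smallest adjusted p of 0.053. The 381 genes kept their direction there, with median log2 changes of 0.41 (higher set) and -0.54 (lower set), against 0.53 and -0.47 as reported. No called change was smaller in size than 0.23 as reported, so a kept direction says little.

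The counts also differed between combinations of length and level. Long genes over 15.4 FPKM held the densest calls, with 87 higher and 1 lower among 1514 (5.75% and 0.0661%). Short genes over 15.4 FPKM were divided evenly on FPKM as deposited, at 29 higher and 26 lower among 1830 (1.58% and 1.42%). Their median change was 0.00 where that of all genes was 0.09, and with deviations set to 0 the calls were 0 and 5. Short genes up to 3.72 FPKM gave 18 higher and 7 lower among 1847, or 2 and 4 with deviations set to 0, at a median half-width of 0.47. The part of the interval width in these counts was not tested. Of the 1346 rows without an Ensembl ID, at a median of 1.35 FPKM, 8 were higher and 3 lower (0.594% and 0.223%), against 0.944% and 0.157% of all genes up to 3.72 FPKM.

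**Figure D3:**
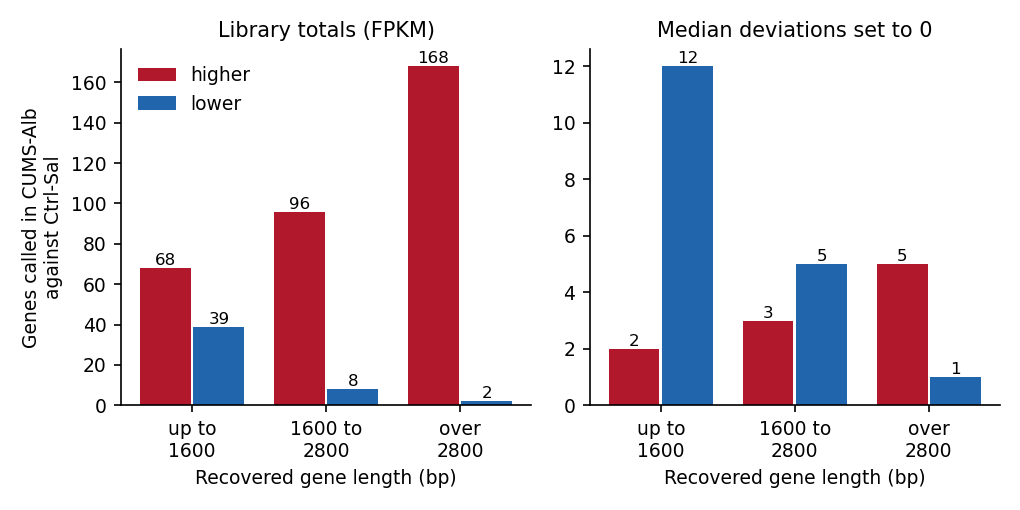
Bars give the number of genes called higher (red) or lower (blue) in CUMS-Alb against Ctrl-Sal in 3 classes of recovered length, on FPKM as deposited (left) and with libraries centred on a median deviation of 0 (right), on different vertical scales. Lower genes are mostly of up to 1600 bp in both panels, at 39 and 12, while the higher genes drop from 332 to 10 in all.

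The most abundant genes took a smaller share of the reads in each CUMS-Alb library than in any Ctrl-Sal library, and CUMS-Sal had a like share. Those with over 1% of reads apiece, 9 genes of 681 to 1830 bp, held 20.4, 22 and 17.4% of reads in Ctrl-Sal and 14.6, 15 and 15.6% in CUMS-Alb. The groups did not overlap (20% ± 2.32 against 15.1% ± 0.485, SD, n = 3). The exact two-sided permutation test gave p = 0.1, its smallest possible value for 3 against 3, and 0.267 when adjusted by Benjamini-Hochberg over 8 comparisons of read shares. The share was 14.8, 14.7 and 15% in CUMS-Sal (CUMS-Alb against CUMS-Sal, exact permutation p = 0.7, adjusted 1.0) and 18.8, 15.5 and 15.3% in CUMS-Flx. One by one, 1 of these 9 was called lower, with log2 changes of -0.51 to -0.27 over the 9. Under deviations set to 0 they were -0.60 to -0.37. Genes over 2800 bp took the opposite course, with 36.2, 36.2 and 38% of reads in Ctrl-Sal and 40.1, 40.4 and 40% in CUMS-Alb (exact permutation p = 0.1; adjusted 0.267). CUMS-Sal, at 40.1, 41 and 40.1%, was close to CUMS-Alb (exact permutation p = 0.6, adjusted 1.0), and CUMS-Flx held 37.5, 39.2 and 40.2%. Genes of up to 1600 bp other than the 9 held 17.9% ± 0.468 in Ctrl-Sal and 18% ± 0.227 in CUMS-Alb (SD, n = 3; exact permutation p = 0.8), a difference smaller than the spread between libraries. The shares of a library have a fixed sum, so a smaller share of the 9 genes goes with larger shares of others. These differences are therefore not separate from each other. The part of these shares in the calls of other genes was not tested.

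The called genes were then read in all 12 libraries, against the mean of the Ctrl-Sal libraries. The medians of the 332 higher genes were 0.55, 0.51 and 0.48 in CUMS-Alb and 0.08, -0.19 and 0.12 in Ctrl-Sal. CUMS-Sal stood at 0.47, 0.56 and 0.49, and CUMS-Flx at 0.28, 0.42 and 0.45. The libraries of these groups entered the choice of genes through the filter and the spread shared in the fit, so they are not independent of it. The medians of the 49 lower genes were -0.49, -0.47 and -0.48 in CUMS-Alb, -0.39, -0.40 and -0.29 in CUMS-Sal and -0.23, -0.31 and -0.40 in CUMS-Flx. For the higher genes the CUMS-Alb medians lay inside the range of CUMS-Sal, and for the lower genes they lay outside it, farther from Ctrl-Sal. The CUMS-Alb values themselves chose both sets, which favours CUMS-Alb lying farther out, so this order carries no test. The 3 stressed groups are set against the same Ctrl-Sal libraries, so a deviation of those libraries enters all of them alike.

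**Figure D4:**
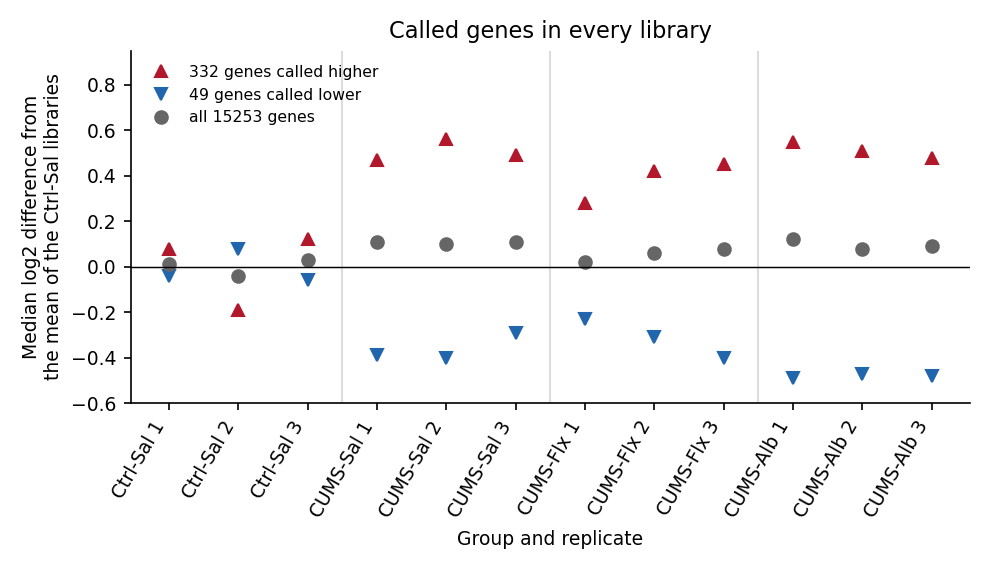
Median log2 difference from the mean of the 3 Ctrl-Sal libraries in each of 12 libraries, for the 332 genes called higher in CUMS-Alb (red), the 49 called lower (blue) and all 15253 genes (grey). All 9 stressed libraries lie above 0 for the red and below 0 for the blue set, with CUMS-Flx replicate 1 nearest to 0, at 0.28 and -0.23.

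The number of calls depended on single libraries of both groups. Ctrl-Sal replicate 2 was the lowest unstressed library in 282 of the 332 higher genes (84.9%, against 47.9% of all genes) and the highest in 34 of the 49 lower ones (69.4%, against 30.7%). Without Ctrl-Sal replicate 2, 5 genes were called higher and 1 lower, and the median log2 changes of the 332 and the 49 became 0.42 and -0.40. Measured from Ctrl-Sal replicates 1 and 3 alone, the higher genes stood at 0.45, 0.42 and 0.38 in CUMS-Alb and the lower ones at -0.42, -0.44 and -0.43. Without CUMS-Alb replicate 1 the calls were 1 and 0, and without replicate 2 or 3 they were 0 and 0, with the median changes at 0.51 to 0.54 and -0.48 to -0.47. Without Ctrl-Sal replicate 3, in contrast, 2075 genes were called higher and 281 lower.

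To read the difference in CUMS-Alb libraries that had not chosen the genes, the 300 genes of smallest p were taken without 1 library and then read in it. Chosen without CUMS-Alb replicate 1, 2 or 3, the higher genes stood 0.49, 0.47 and 0.46 above the Ctrl-Sal mean in the left-out library, against 0.12, 0.08 and 0.09 for all genes. The lower genes stood at -0.34, -0.44 and -0.39 there. The Ctrl-Sal libraries were the same in choosing and reading, so their own deviations, such as that of replicate 2, enter both steps and favour the same side. These values are therefore a description and carry no test.

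Left-out unstressed libraries varied more. The higher genes exceeded Ctrl-Sal replicates 1, 2 and 3, each left out of the choice, by 0.36, 0.83 and 0.27, against 0.08, 0.13 and 0.06 for all genes. In the libraries that chose them, the same genes had medians of 0.65, 0.44 and 0.67, so the difference was smaller in replicates 1 and 3 when these were left out, and larger in replicate 2. For the lower genes the differences from the left-out libraries were -0.35, -0.50 and -0.29. Here the CUMS-Alb libraries were shared between choosing and reading.

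A direct test against stressed rats given saline asks whether albiflorin had moved the genes that still differed. In CUMS-Alb against CUMS-Sal limma called 0 of 15253 genes (0% called, 559 or 3.66% at an unadjusted p under 0.05, smallest adjusted p = 0.2), and limma-voom on the recovered reads also called 0. Over all genes the median difference was -0.01. In 13199 genes (86.5%) the 95% interval of the difference lay within 1.5-fold on the scale of FPKM + 0.5. Of the 332 genes above the unstressed level, 188 stood farther from it than CUMS-Sal and 144 nearer, with a median difference of 0.01 and quartiles of -0.04 and 0.07. Of the 49 genes below it, 40 stood farther and 9 nearer, with a median of -0.11. Both sets were chosen with the CUMS-Alb libraries, which places CUMS-Alb farther from Ctrl-Sal by construction, so these counts carry no test. The interval of the single difference had a median half-width of 0.25 for the higher and 0.22 for the lower genes, before any adjustment over genes. In 14 of the higher and 10 of the lower genes it left out 0, and none of these passed the adjusted test, so a difference had to be larger than this half-width to be called.

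By the same fit, the other stressed groups differed from Ctrl-Sal in more and in fewer genes. CUMS-Sal had 1228 higher and 174 lower (8.05% and 1.14%), and CUMS-Flx 5 and 3 (0.0328% and 0.0197%). For the 332 genes the median log2 change from Ctrl-Sal was 0.53 in CUMS-Alb, 0.52 in CUMS-Sal and 0.38 in CUMS-Flx. For the 49 it was -0.47, -0.37 and -0.33. The 332 and the 49 genes were chosen by their values in CUMS-Alb, which favours larger changes there. The groups share the Ctrl-Sal libraries, and neither these medians nor the numbers of calls test a difference between the groups.

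**Figure D5:**
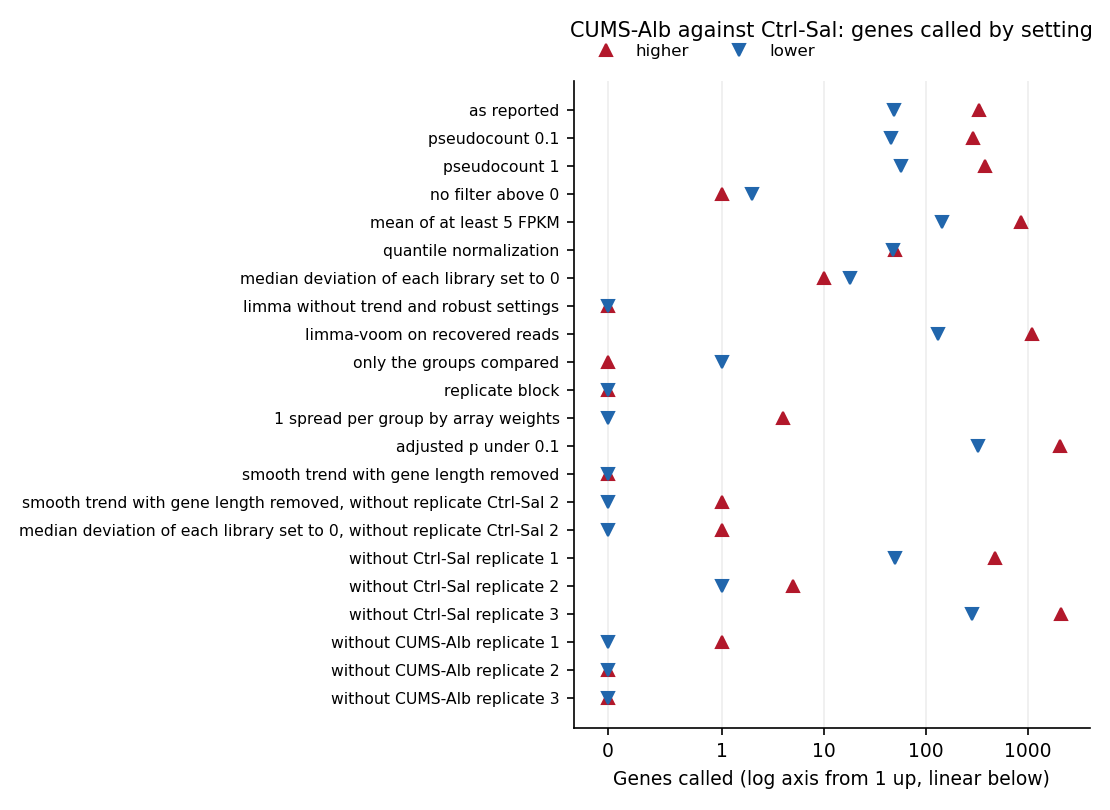
Genes called higher (red) and lower (blue) in CUMS-Alb against Ctrl-Sal under each setting, on an axis that is logarithmic from 1 up and linear below. The counts run from 0 and 0 in several settings, among them those without CUMS-Alb replicate 2 or 3, around the 332 and 49 reported. The most are 2075 higher without Ctrl-Sal replicate 3 (281 lower) and 323 lower at an adjusted p under 0.1.

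The genes that kept their calls across the scalings and the fit named next were few. None of them was called with the length trend removed or without CUMS-Alb replicate 2 or 3, where the calls were 0 and 0. Called in the same direction as reported, with deviations set to 0, after quantile normalization and by limma-voom on recovered reads were 9 higher and 16 lower genes, the 4 rows of the rule among them. Their median log2 change was 0.75 and -0.52, their median length 3307 and 1149 bp and their median level 14.9 and 21.8 FPKM. Limma-voom alone called 1089 genes higher and 132 lower (7.79% of 15678 tested), and 372 of the 381 calls (97.6%) were among them in the same direction.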

How the data were processed

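RNA sequencing of rat hippocampus was deposited as 1 table of 12 columns, named as the samples. The deposited values are FPKM; the header names no unit, and it was read from the values, where each gene has steps of 1 read. Per the submitters' processing notes TopHat2 and build rn6 were used; the read counter is not given in the sources used here, nor are annotation release and strand setting. Lengths and whole reads (within 0.0001 of a read) were recovered for 22737 of 22737 rows above 0, and gene reads summed to 99.989 to 99.990% of each recovered total. Genes that overlap or share reads with copies could not be set apart.

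Values were tested as log2(FPKM + 0.5) in limma 3.58.1 (R 4.3.3, trend and robust) over 15253 rows with all 12 libraries and 1 coefficient per group, with calls at an adjusted p under 0.05 (Benjamini-Hochberg). The steps were tested on simulated data with a common extra spread for all genes. These held no outlying library and no trend with gene length, so such conditions were not covered. Read shares were compared by exact two-sided permutation over the libraries. Within replicate pairs, reads differed by 2.17 to 6.55 times counting noise (median), and no 2 libraries were taken as 1. Rows named singly are the 2 of smallest p per direction with non-overlapping libraries. Gene lists and markers written for this work could not be matched to rows, because the reference used held no Ensembl IDs, and were not tested. Members, lists and tests were chosen with earlier results of these data known. Alternatives were pseudocounts of 0.1 and 1, other filters, scalings, spreads and thresholds, limma-voom on reads (mean of at least 10), the replicate block and leaving out each library; removal of a trend with gene length, and 2 fits without Ctrl-Sal replicate 2, were chosen after seeing the data, as were the length and level classes, the read-share sets, the genes read in a left-out library and the set called across scalings. Figures used matplotlib 3.10.9 in Python 3.11.15.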

Additional observations from a re-analysis of the deposited data

How the results depend on the processing

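The counts of genes called in CUMS-Alb against Ctrl-Sal (332 higher, 49 lower) stayed within 1.5 times with pseudocounts of 0.1 and 1 and, for the lower genes, after quantile normalization, where 50 were higher. They were 1 and 2 without a filter above 0, 854 and 142 at a mean of at least 5 FPKM, 10 and 18 with library deviations set to 0, and 1089 and 132 by limma-voom. They were 0 and 0 in limma without trend and robust settings (26.4% of genes at an unadjusted p under 0.05), 0 and 1 in a fit of the compared groups alone, 4 and 0 with 1 spread per group, and 2050 and 323 at an adjusted p under 0.1. With the length trend removed they were 0 and 0, and without Ctrl-Sal replicate 2 they were 1 and 0 both then and with deviations set to 0. Leaving out 1 library gave 0 to 2075 higher and 0 to 281 lower genes. Outside the change of scale or of samples itself, the cause was not tested. With the replicate number as a block 0 and 0 genes were called (26.1% at an unadjusted p under 0.05), but the numbers did not pair the libraries, since same-numbered deviations correlated at 0.054, -0.045 and -0.058 across genes. For CUMS-Alb against CUMS-Sal the 0 calls became 1 with a pseudocount of 0.1 and 4 when the fit held just these groups, and 0 to 1 when 1 library was left out; the block gave 0. Of the rows described singly, ENSRNOG00000055068 changed sign in that comparison without CUMS-Alb replicate 3 (-0.02, and -0.02 to 0.14 over the libraries left out in turn). At the recovered depth a row at 0.5 FPKM rests on few reads, and its interval is the wider for it.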
